A study of Rattus norvegicus with 20 samples.

Results

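The genes of the mitochondrial respiratory chain were followed across 20 expression arrays of rat nasal epithelium. Members were taken by name: every probe set, the array's unit of measurement for one transcript, whose single annotated gene symbol marks a subunit of complexes I to V of the chain, cytochrome c, or a factor sharing that prefix. This gave 101 probe sets and, with the probe set of highest mean signal kept for each gene, 90 genes of the 14217 genes measured. They comprise 34 subunits of complex I, 4 of complex II, 7 of complex III, 17 of complex IV and 16 of complex V, 10 assembly factors, the paralog Ndufa4l2 and the pseudogene Cox6c-ps1. All rats were untreated adult Sprague-Dawley rats (called CD in the labels), an outbred stock with no genetic modification, aged 11, 13 or 14 weeks and killed with an overdose of ketamine. Males gave 6 olfactory and 6 respiratory arrays and females 2 olfactory and 6 respiratory arrays, 1 per tissue sample, from 7 male and 6 female rats, of which 7 gave both tissues. Each sample was epithelium collected from the nasal passages and turbinates, which holds several cell types, and the pair of female olfactory arrays limits every statement on females.

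The respiratory chain sits in the inner mitochondrial membrane. Complex I takes electrons from NADH and complex II from succinate, complex III passes them to cytochrome c, complex IV hands them to oxygen, and complex V, the ATP synthase, uses the proton gradient so built to make ATP. Olfactory epithelium carries the sensory neurons, whose firing and constant renewal need ATP, and respiratory epithelium carries beating cilia and secretory cells, so both tissues rely on the chain. Several subunits of complex IV come in tissue forms, among them forms typical of heart and skeletal muscle, lung or testis.

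The tissue labels were checked on the markers of olfactory neurons: all 8 measured markers were higher in male olfactory than in male respiratory arrays, with summed signals of 67253 to 79825 in male olfactory and 3346 to 15594 in male respiratory arrays. In females the sums were 79729 and 83508 on olfactory and 4529 to 27042 on respiratory arrays. Female respiratory 7 and 3 were highest of the latter, at 27042 and 16401, which limits the female tissue comparison. Male respiratory 1 was highest in its group, at 15594 against 3346 to 7231 on the others, which limits the male comparison too. The chain genes were bright, with a median over genes of 12.41 for the mean log2(signal + 16), against 8.67 over all genes, and 86 of the 90 lay above the array's own background on all arrays. The exceptions were the tissue forms Cox4i2, above background on 14 of 20 arrays, Cox6a2 on 6 and Cox7b2 on 6, and Ndufa4l2 on 17.

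The level of the whole set differed more between single arrays than between the groups. The median log2 level of the 90 genes ran from 12.06 to 13.20 on male olfactory arrays, against 12.02 to 12.91 on male respiratory arrays, and was 12.66 and 13.01 on the female olfactory arrays, against 11.99 to 13.23 on female respiratory arrays. The groups overlap throughout. The summed signal of the set differed 2.83-fold between arrays, from 405827 on male olfactory 2 to 1148133 on female respiratory 8. The order of the arrays followed the upper range of all signals on the array: sorted by the set's median, the top 9 arrays stood in the same order as by the 95th percentile of all signals. These were female respiratory 8, male olfactory 10, female olfactory 6, male respiratory 7, male olfactory 4, female olfactory 8, male olfactory 7, male olfactory 1 and male respiratory 3. The same arrays had the lowest median signals, from 134 on female olfactory 6 to 171 on male respiratory 3, against 174 to 192 on the others. Their high signals were higher and their median signal was lower, so array brightness here means the 95th percentile alone. Fits that take array brightness in this sense into account are given beside the counts.

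**Figure D1:**
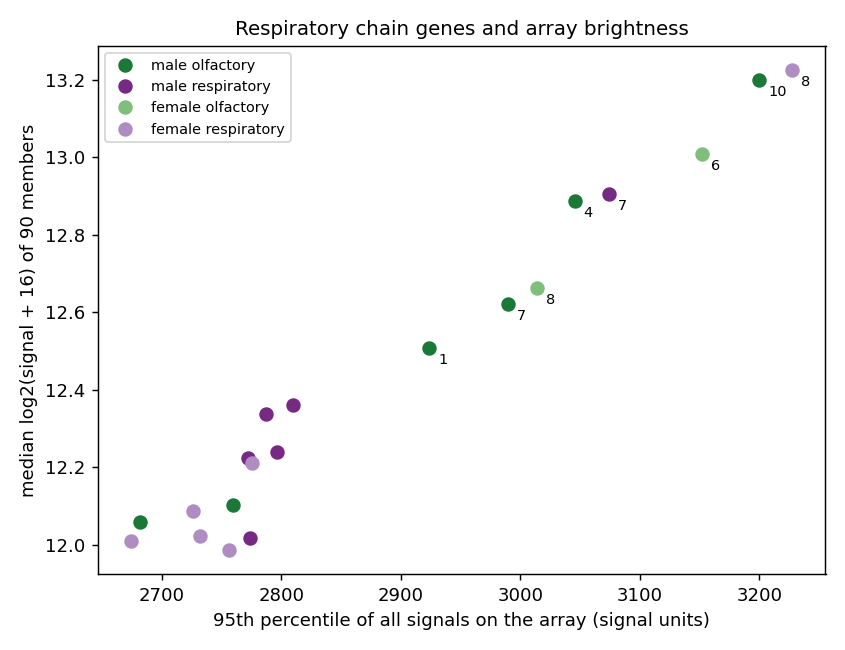
Median log2(signal + 16) of the 90 respiratory chain genes (vertical axis) against the 95th percentile of all signals of the same array (horizontal axis, signal units), one point per array, coloured by group, with the rat's number at the brightest 8. The set's level climbs with this percentile in every group, and the 2 highest points, at 13.23 and 13.20, are a female respiratory and a male olfactory array.

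Arrays of 3 rats stood apart from the others of their groups. On male olfactory 10, 67 of the 90 genes had their highest value of the group, on male respiratory 7 it was 73, and on female respiratory 8 it was 76, whereas of all genes 26.8%, 37.8% and 26.5% peaked on these arrays. A few members went the other way: Ndufs1, the large iron-sulfur subunit of complex I, and Sdha, the flavoprotein of complex II, each had the lowest value of their group on all 3 of these arrays, as did the complex II assembly factor Sdhaf2. Such lows were common over the array: of all genes 26.9%, 30.1% and 39.6% were lowest of their group there. Of the 90 genes, 5 were lowest on male olfactory 10, 9 on male respiratory 7 and 7 on female respiratory 8. Ndufs1 gave a signal of 924 on male olfactory 10, against 1285 to 2906 on the other male olfactory arrays. On male respiratory 7 it gave 802, against 2932 to 3844 on the others of that group, and on female respiratory 8 it gave 1642, against 1974 to 2988. By contrast Cox6c, a small subunit of complex IV, reached 39547 on female respiratory 8, against 11271 to 13637 on the other female respiratory arrays. Female respiratory 8 also had the highest 3' over 5' log2 ratio of the array's GAPDH control, 0.73 against 0.24 to 0.45 in the rest of its group, while male respiratory 7 had 0.40 against 0.29 to 0.34 and male olfactory 10, at 0.20, lay within the range of its group, 0.04 to 0.28. The array's other controls did not rank these arrays alike. The beta-actin ratio was highest of its group on female respiratory 8, at 1.68, and within the range of the others on both male arrays. The hexokinase ratio was lowest of its group on female respiratory 8, at 0.48 against 0.87 to 1.33, and on male olfactory 10, at 0.42 against 0.51 to 1.12, and within the range of the others on male respiratory 7. The part of these ratios in the results was not tested.

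The first question the design poses is whether the tissues differ. In males, 6 of the 90 genes were higher in olfactory than in respiratory epithelium, 1 was lower and 83 did not pass the test (limma, adjusted p under 0.05 over all probe sets). That is 7.78% of the set, while 31.8% of all genes were called, 14.0% higher and 17.8% lower. The median log2 difference over the set was 0.19, with 69 genes positive and 21 negative, against -0.05 over all genes. This sign did not hold under every setting: the median was -0.02 with the 95th percentile of the array as a covariate, -0.11 in males aged 11 weeks alone and -0.32 with a term for the RNA integrity number. In tissue samples of mixed cells, fewer cells of a type and less RNA per cell cannot be told apart. No member separated the male tissues without overlap in either direction, while 7.54% of all genes did so with olfactory higher and 10.2% with olfactory lower.

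**Figure D2:**
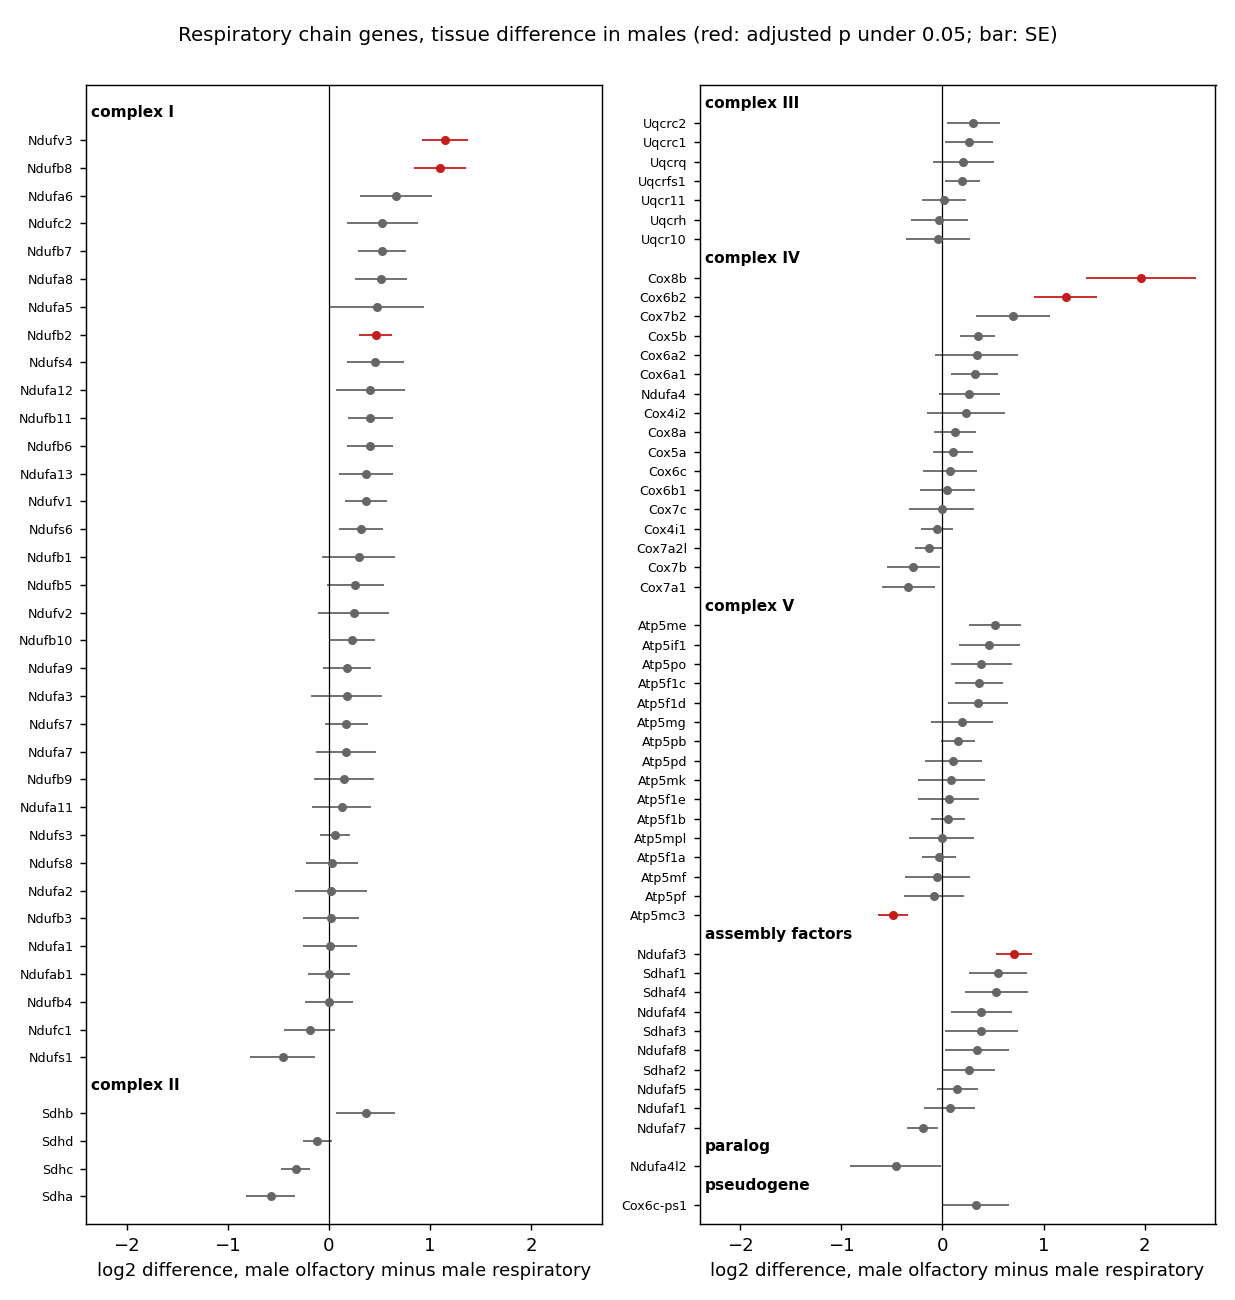
Log2 difference, male olfactory minus male respiratory (horizontal axis), of each of the 90 genes, sorted by complex and by size, with bars of 1 standard error from limma; red marks adjusted p under 0.05. The 6 red points right of 0 are Ndufv3, Ndufb8, Ndufb2, Cox8b, Cox6b2 and Ndufaf3, the red point left of 0 is Atp5mc3, and most others lie within 0.5 of 0.

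Complex I held 3 of the 7 called genes, and 30 of its 34 differences were positive, with a median of 0.25. Ndufv3, an accessory subunit at the NADH-binding tip of the complex, had signals of 4317 to 9804 with a median of 6603 on male olfactory arrays, against 1999 to 4378 with a median of 2747 on male respiratory arrays. The tissues overlapped only through male respiratory 7, whose 4378 lay just above the lowest male olfactory value. The log2 difference was 1.15 (SE 0.23, limma adjusted p 0.0005). In females the signals were 9464 and 7025 on the olfactory arrays, against 2333 to 4907 on the respiratory arrays, with no overlap and a difference of 1.55 (SE 0.32, limma adjusted p 0.0017). A second, dimmer probe set of Ndufv3 did not share this, at -0.36 in males (SE 0.22, limma adjusted p 0.27). Which transcript each probe set reads was not settled. With the mean of both probe sets, the Ndufv3 difference fell to 0.39 in males and 0.66 in females, the lowest of all settings tried. Ndufv3 was called in 33 of 35 settings in males and in 31 of 33 in females.

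Ndufb8, an accessory subunit of the membrane arm, had signals of 940 to 2238 with a median of 1326 on male olfactory arrays, against 500 to 1122 with a median of 583 on male respiratory arrays. All male respiratory arrays but number 7 lay below every male olfactory array. The difference was 1.10 (SE 0.26, limma adjusted p 0.0027), and in females it was 1.08 (SE 0.37, limma adjusted p 0.0452), from 2092 and 1210 on olfactory arrays against 501 to 1465 on respiratory arrays. Ndufb2, another small membrane-arm subunit, gave 4970 to 7795 with a median of 6967 on male olfactory arrays, against 3901 to 6102 with a median of 4664 on male respiratory arrays. Its difference of 0.46 (SE 0.17, limma adjusted p 0.0463) passed narrowly and was called in only 5 of the 20 fits that leave out 1 array. With the rat as a fixed block over the 5 males with both tissues it was 0.35 and no longer called (limma adjusted p 0.14).

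The remaining 31 subunits of complex I did not pass. Ndufa6 had the largest of these differences in males, 0.66 (SE 0.35, limma adjusted p 0.18), and Ndufs1 the lowest, -0.46 (SE 0.32, limma adjusted p 0.34). Ndufb4, bright on every array, had 10249 to 22775 on male olfactory arrays, against 12241 to 17126 on male respiratory arrays, a difference of 0.00. For 2 further subunits a second probe set was called in males although the brighter one kept here was not. For Ndufa7 the second probe set differed by 0.96 (limma adjusted p 0.0032) and the one kept by 0.17, and for Ndufa9 the values were 1.30 (limma adjusted p 0.0076) and 0.18.

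**Figure D3:**
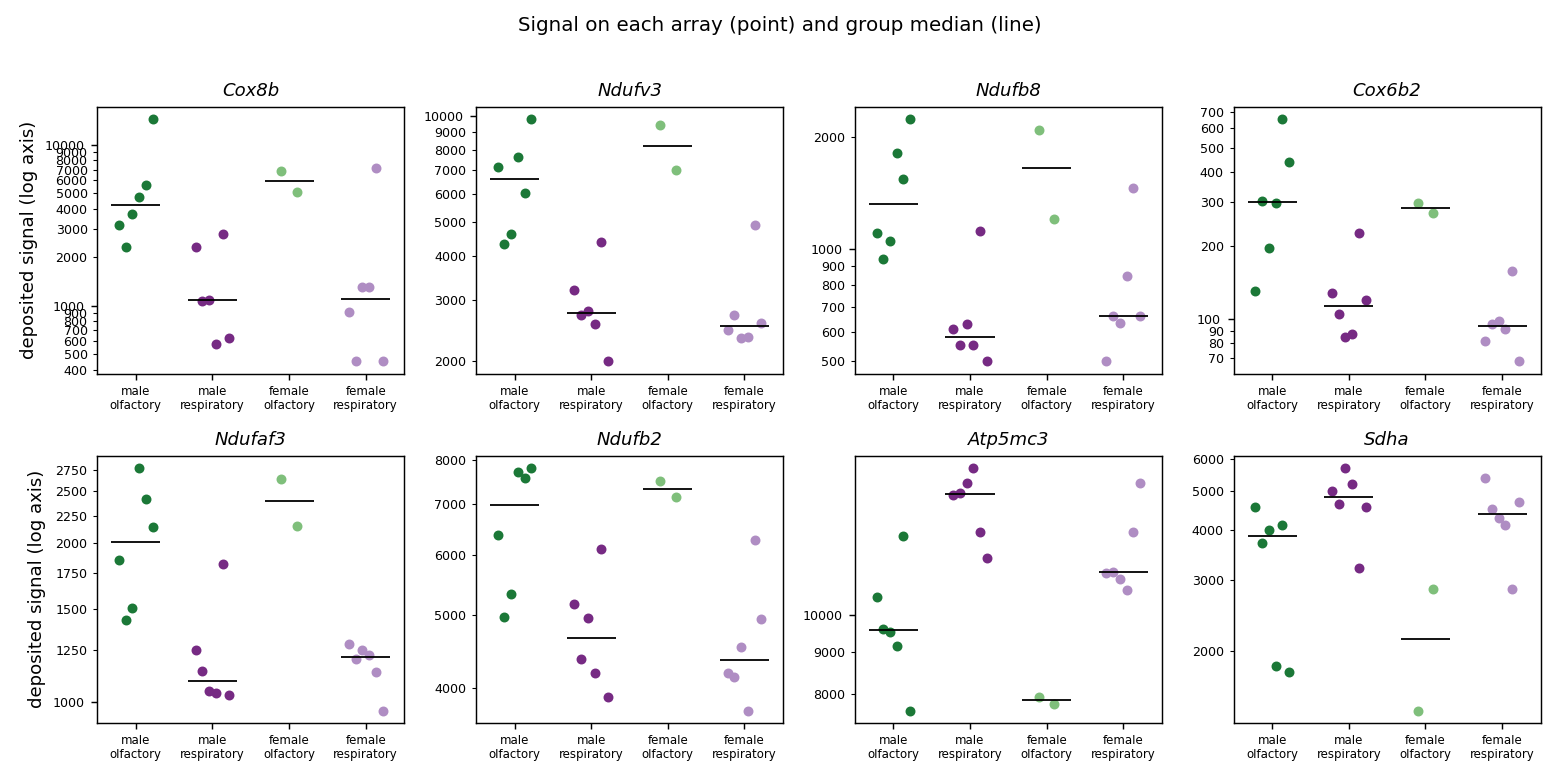
Deposited signal (vertical axis, log scale) of 8 respiratory chain genes on each array, by sex and tissue, with a line at the group median. Cox8b medians are 4211 in male olfactory and 1079 in male respiratory arrays, and Atp5mc3 medians are 9563 in male olfactory and 14039 in male respiratory arrays. In the respiratory groups the arrays of male 7 and female 8 are highest for Cox8b, Ndufv3, Ndufb8, Cox6b2 and Ndufb2, and lowest for Sdha.

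Assembly factors help build the complexes without staying in them. Of 10 with the chain's prefixes 1 was called in males and 9 differences were positive, with a median of 0.36. Ndufaf3, needed early in the assembly of complex I, had 1426 to 2767 with a median of 2001 on male olfactory arrays, against 1029 to 1824 with a median of 1096 on male respiratory arrays. Apart from male respiratory 7 the tissues did not overlap. The difference was 0.71 (SE 0.18, limma adjusted p 0.0047), and in females 1.02 (SE 0.25, limma adjusted p 0.0069), with 2643 and 2155 on olfactory arrays against 962 to 1284 on respiratory arrays. Ndufaf7, a methyltransferase acting on a complex I subunit, differed by -0.20 in males with the probe set kept and by 0.70 with its other one (limma adjusted p 0.0192), so its probe sets disagreed. Sdhaf1, a complex II assembly factor, had 1818 to 6203 on male olfactory and 1724 to 4408 on male respiratory arrays, a difference of 0.55 that did not pass (SE 0.29, limma adjusted p 0.18).

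None of the 4 subunits of complex II and none of the 7 of complex III was called in males by limma, with medians of -0.22 and 0.20. At an unadjusted p under 0.05 there were 2 in complex II, Sdha and Sdhc, and none in complex III, beside 35.2% of all probe sets. Sdhb, the iron-sulfur subunit, differed by 0.36 (SE 0.29, limma adjusted p 0.42), the membrane anchors Sdhc and Sdhd by -0.33 and -0.11, and Sdha by -0.58 (SE 0.25, limma adjusted p 0.09). Sdha signals were 1774 to 4559 with a median of 3856 on male olfactory arrays, against 3213 to 5687 with a median of 4813 on male respiratory arrays, and the values of male olfactory 4 and 10, 1838 and 1774, lay far below the others of their group. In complex III, Uqcrh, the hinge protein next to cytochrome c1, had 8901 to 20537 on male olfactory and 10424 to 21142 on male respiratory arrays, a difference of -0.03 (SE 0.28, limma adjusted p 0.96). Differences in complex III ran from -0.04 for Uqcr10 to 0.31 for the core subunit Uqcrc2. Uqcrc2 had 0.31 with the probe set kept and -0.66 with its other one, and neither passed.

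Complex IV held the largest tissue difference of the set, in a tissue form. Cox8b, known as the form of subunit 8 in heart, skeletal muscle and brown fat of rodents, had 2306 to 14394 with a median of 4211 on male olfactory arrays, against 574 to 2794 with a median of 1079 on male respiratory arrays. The tissues overlapped through male respiratory 1 and 7, at 2317 and 2794. Male respiratory 1 also had the highest olfactory neuron marker sum of its group, 15594. The difference was 1.96 (SE 0.54, limma adjusted p 0.0089), and in females 2.34 (SE 0.76, limma adjusted p 0.0363), with 6836 and 5043 on olfactory arrays against 449 to 7127 on respiratory arrays. The form found in most tissues, Cox8a, had 9942 to 17764 on male olfactory and 10446 to 18332 on male respiratory arrays, a difference of 0.13 (SE 0.21, limma adjusted p 0.72).

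Because Cox8b is a muscle form, markers of striated muscle are given beside it. Of 18 markers 1 was called higher in male olfactory arrays (Myl11, a fast myosin light chain, 2.34) and 1 lower (Tnni2, a fast troponin). Their summed signal overlapped, 5811 to 20731 on male olfactory and 6447 to 14534 on male respiratory arrays. It was highest on male olfactory 10, at 20731, and on female respiratory 8, at 16889, which were also the 2 brightest arrays of the 20. Most of these sums came from 1 probe set, that of the myosin heavy chain Myh1, which gave 13289 and 14630 there and 4395 or more on every array. The other myosin heavy chains, Myh2, Myh4 and Myh7, were above background on only 11, 6 and 4 arrays. Whether the Myh1 probe set reads Myh1 alone was not tested, so the sum is a poor measure of muscle. Of the 18 markers, Myh1 and the troponin Tnnc2 were above background on all 20 arrays, the actin Acta1, Tnni1 and Pygm on 19 each, and the muscle creatine kinase Ckm and the myoglobin gene Mb on 6 and 3. Acta1 gave 162 on male olfactory 10 and 49.5 on female respiratory 8, within the range of the other arrays of the first group and below those of the second. Tnnc2 was highest of its group on both, at 4255 and 836. Myl11 was highest of its group on male olfactory 10, at 1986, and within the range of the others on female respiratory 8, at 217. On male respiratory 1 and 7, where Cox8b overlapped, Tnnc2 gave 2915 and 651, against 82.7 to 328 on the rest of that group. Myl11 gave 497 and 264 there, against 6.1 to 212. Acta1 gave 82.6 and 517 there, against 62.8 to 429. The other markers are not given by array. Cox6a2, the muscle form of subunit 6a, had 7.81 to 65.8 on male olfactory and 4.03 to 64.9 on male respiratory arrays, at or near background. Cox7a1, the muscle form of subunit 7a, differed by -0.34 (SE 0.26, limma adjusted p 0.39). Of 7 brown fat markers none was higher and 2 were lower, with sums of 258 to 544 on male olfactory and 725 to 1543 on male respiratory arrays. The part of muscle cells in the Cox8b difference was not tested.

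Cox6b2, the form of subunit 6b known from testis, had 131 to 654 with a median of 301 on male olfactory arrays, against 84.7 to 224 with a median of 113 on male respiratory arrays. Only male respiratory 7, at 224, exceeded any male olfactory array. The difference was 1.22 (SE 0.31, limma adjusted p 0.0049), and in females 1.42 (SE 0.44, limma adjusted p 0.0261), with 297 and 272 on olfactory arrays against 67.4 to 157 on respiratory arrays. The form found in most tissues, Cox6b1, differed by 0.05 in males (SE 0.27, limma adjusted p 0.92). Cox7b2, also a testis form, was above background on 3 of 6 male olfactory arrays and on none of the male respiratory arrays, at 12.6 to 98.7 on male olfactory and 3.46 to 42.9 on male respiratory arrays, and did not pass (limma adjusted p 0.18). Cox7b, the common form, differed by -0.29.

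The other subunits of complex IV did not pass in males. Cox4i1, the common form of subunit 4, had 13831 to 20031 on male olfactory and 15355 to 23080 on male respiratory arrays, a difference of -0.06 (SE 0.16), and the lung form Cox4i2 differed by 0.23 (SE 0.39). Differences were 0.35 for Cox5b, 0.32 for Cox6a1, 0.08 for Cox6c, 0.27 for Ndufa4 and -0.13 for Cox7a2l, a factor in joining complexes III and IV. Cox5a was read here only by a dim probe set, with a difference of 0.11. A bright probe set that also matches a second gene had -0.23 (limma adjusted p 0.29). Ndufa4l2, a paralog of Ndufa4 known to be induced by low oxygen, had 15.5 to 197 on male olfactory and 37.8 to 244 on male respiratory arrays, with a difference of -0.46 (SE 0.45, limma adjusted p 0.52). The pseudogene Cox6c-ps1, which may share sequence with Cox6c, differed by 0.33 (SE 0.33, limma adjusted p 0.53).

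The only member lower in male olfactory epithelium belonged to complex V. Atp5mc3 is one of the genes for subunit c, which forms the rotating ring of the ATP synthase. Its signals were 7629 to 12493 with a median of 9563 on male olfactory arrays, against 11727 to 15112 with a median of 14039 on male respiratory arrays, and overlapped through male olfactory 7 alone. The difference was -0.49 (SE 0.15, limma adjusted p 0.0191), and -0.59 in females (SE 0.21, limma adjusted p 0.058, not called), with 7926 and 7778 on olfactory arrays against 10707 to 14495 on respiratory arrays. With the rat as a fixed block over the 5 males with both tissues it was -0.46 and not called (limma adjusted p 0.074). The probe sets of the other genes for subunit c, Atp5mc1 and Atp5mc2, match more than 1 gene and had -0.34 and 0.06, neither called. The catalytic subunit Atp5f1b differed by 0.06 (SE 0.16, limma adjusted p 0.86) and the inhibitor Atp5if1 by 0.46 (SE 0.30, limma adjusted p 0.30), and the median over the 16 members of complex V was 0.10. The largest positive difference in complex V was 0.52 for Atp5me, a small subunit of its membrane part (SE 0.26, limma adjusted p 0.15).

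Cytochrome c has no member here, since both probe sets of Cycs match several genes, and they had 0.40 and 0.54 in males with neither called. In all, 9 probe sets of the chain match more than 1 gene, and none was called in males.

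The male calls were set against 2 measures that move with the tissue or the array. The RNA integrity number, a measure of RNA breakdown, was 8.2 to 8.8 on 5 male olfactory arrays and 9.1 to 9.3 on 4 male respiratory arrays, without overlap. With it as a covariate limma called none of the 90 genes, with 2 at an unadjusted p under 0.05, while it called 7.56% of all probe sets, with 20.6% at that unadjusted p. Tissue and this number cannot be told apart in males. Ndufv3 then had 0.81 (limma adjusted p 0.24) and Cox8b 0.59 (limma adjusted p 0.76). With the array's 95th percentile as a covariate, chosen after seeing the data, all 7 genes called in males passed again: Ndufv3 had 0.93 (SE 0.11, limma adjusted p 5.4e-07), Ndufb8 0.85, Cox8b 1.48, Cox6b2 1.04, Ndufaf3 0.61, Ndufb2 0.33 and Atp5mc3 -0.48. In that fit 1 more gene was higher, Ndufb7, and 7 more were lower, among them Cox7b at -0.54 and Uqcrh at -0.31. The resulting 7 higher and 8 lower of 90 stand beside 15.4% and 16.2% of all probe sets, so the set had a smaller share called than the array as a whole.

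Leaving out the respiratory arrays of male 7 and female 8, the brightest of their groups, gave 19 genes higher and 3 lower in males. With all arrays the counts were 6 and 1, and all 7 calls were kept. The share of all probe sets called was 31.9% then, against 25.2% with all arrays. Only respiratory arrays were left out, and 73 genes of the set peaked on male respiratory 7 and 76 on female respiratory 8. Leaving out such an array raises the olfactory minus respiratory difference of these genes in that sex by construction. The 19 higher genes, and the 6 kept among them, therefore cannot show whether the rises depend on array brightness. The same holds in females for the rises in fits without female respiratory 8.

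A level taken relative to the median of the 90 genes on the same array removes what the whole set shares. The median standard deviation of a gene within a group was then 0.22 on male olfactory and 0.16 on male respiratory arrays, against 0.52 and 0.35 without it. On this scale, chosen after seeing the data, 4 genes were higher on every male olfactory than on every male respiratory array, Ndufv3, Ndufb8, Cox8b and Ndufb7, or 4 of 90 beside 4.87% of all genes. Cox7b and Uqcrh were lower without overlap, 2 of 90 beside 10.5% of all genes. Ndufv3 lay at 0.07 ± 0.12 on male olfactory and -0.86 ± 0.12 on male respiratory arrays (SD, n = 6 each) and at 0.16 ± 0.06 on female olfactory (n = 2) and -0.81 ± 0.13 on female respiratory arrays (n = 6). Ndufb8 lay at -2.12 ± 0.14 on male olfactory and -3.00 ± 0.12 on male respiratory arrays. Cox7b lay at 1.15 ± 0.16 on male olfactory and 1.66 ± 0.15 on male respiratory arrays. In females 8 genes were higher and 18 lower without overlap on this scale, beside 5.56% and 19.4% of all genes. With 2 olfactory arrays against 6, separation without overlap is easier to reach than in males.

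**Figure D4:**
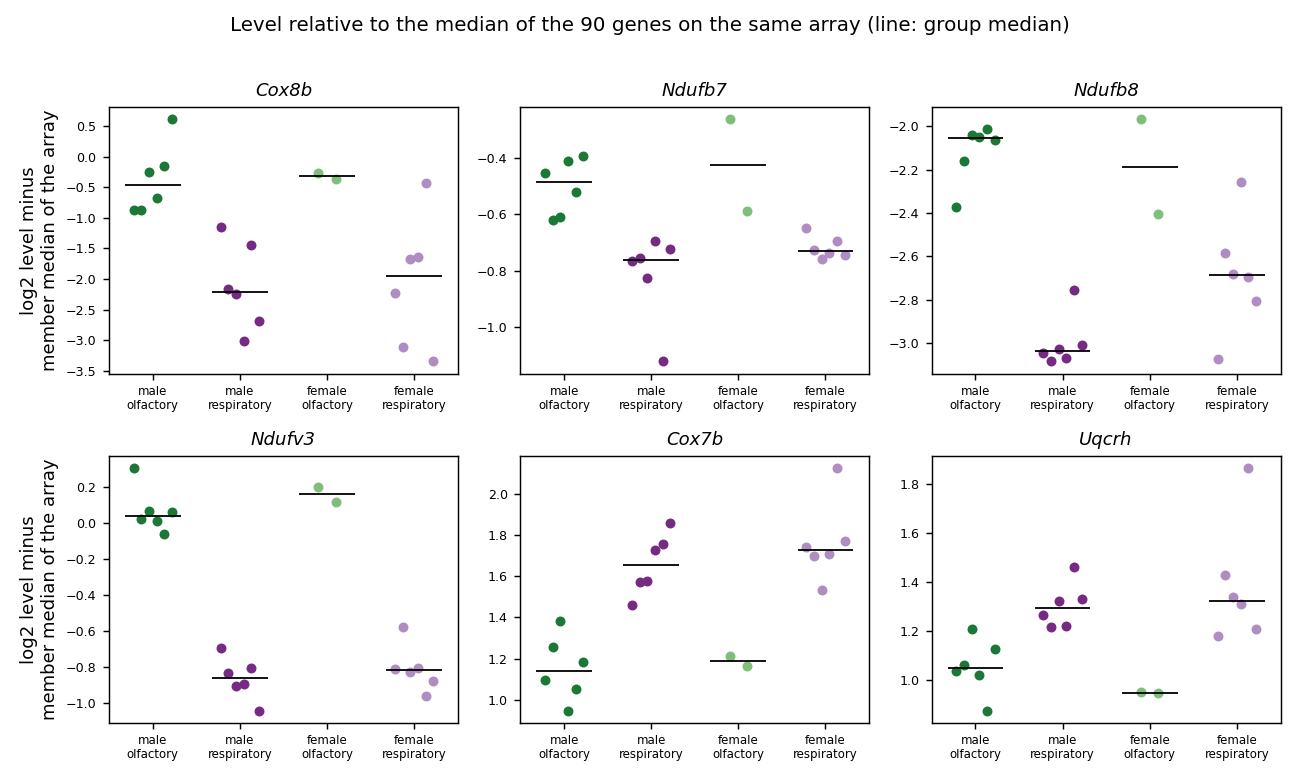
Log2 level of 6 genes minus the median of the 90 respiratory chain genes on the same array (vertical axis), by group, 1 point per array with a line at the group median. In males the tissues do not overlap for any of the 6: Cox8b, Ndufb7, Ndufb8 and Ndufv3 are higher in olfactory arrays, Cox7b and Uqcrh lower.

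The 7 rats that gave both tissues allow a comparison within the rat. The median difference over the 90 genes, olfactory minus respiratory, was 0.16 in male 1, -0.19 in male 2, -0.23 in male 3, 0.72 in male 4, -0.21 in male 7, 0.93 in female 6 and -0.75 in female 8. In every rat its sign was that of the difference in array brightness: the log2 difference of the 95th percentile was positive in male 1, male 4 and female 6 and negative in the others. Ndufv3, Cox6b2, Ndufaf3, Ndufb2 and Sdhaf2 were higher in the olfactory sample of all 7 rats, 5.56% of the set beside 13.8% of all genes. Atp5mc3 was lower in all 7, 1.11% of the set beside 14.4% of all genes. For Ndufv3 the differences ran from 0.46 in male 7 to 2.01 in female 6, and for Atp5mc3 from -0.72 in male 4 to -0.01 in male 7. Cox8b and Ndufb8 were higher in the olfactory sample of 6 rats and lower in female 8, at -0.50 and -0.27.

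**Figure D5:**
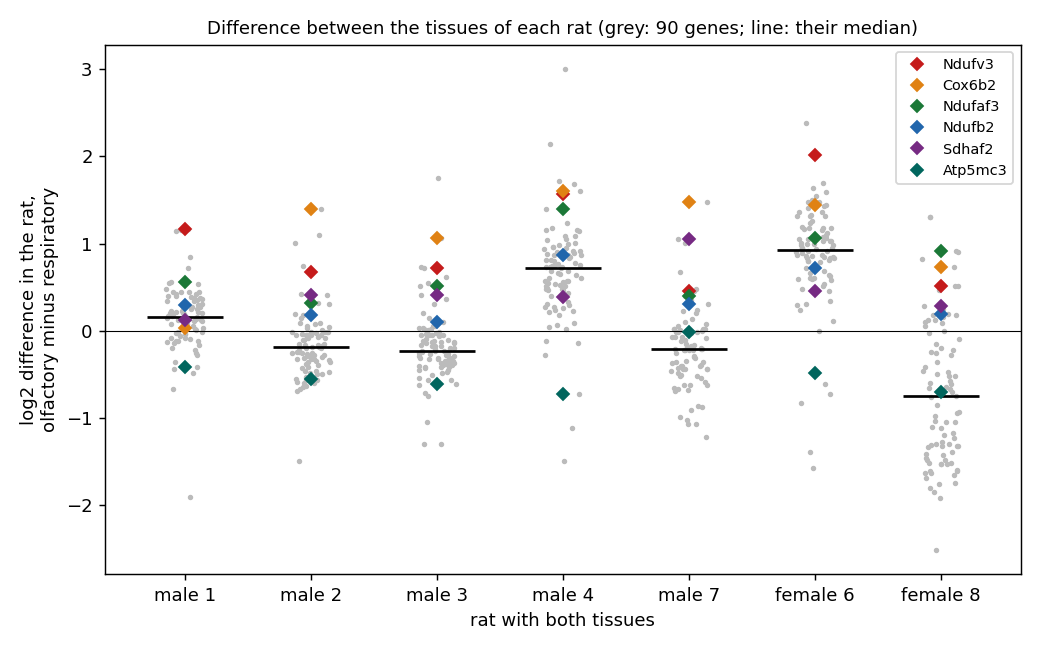
Log2 difference between the olfactory and the respiratory sample of each rat with both tissues (vertical axis), with a grey point for each of the 90 genes, a line at their median and diamonds for 6 genes. The median lies between -0.75 and 0.93, while Ndufv3, Cox6b2, Ndufaf3, Ndufb2 and Sdhaf2 lie above 0 and Atp5mc3 below 0 in all 7 rats.

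In females 7 genes were higher in olfactory epithelium and 1 was lower, beside 22.5% of all genes called, 10.9% higher and 11.6% lower. The median difference over the set was 0.45. The 6 genes higher in males were among the 7, with Sdhd, a membrane anchor of complex II, as the other. The female differences of Ndufb2 and Ndufb8 were called in only 4 and 7 of the 20 fits that leave out 1 array. Sdhd had 6467 and 6317 on female olfactory arrays, against 3568 to 4495 on female respiratory arrays, a difference of 0.67 (SE 0.20, limma adjusted p 0.0213). In males its signals overlapped, at 4302 to 6423 on olfactory and 4485 to 6105 on respiratory arrays. A second, dimmer probe set of Sdhd did not share the female difference, at 0.11 (SE 0.21, limma adjusted p 0.77). Sdha was the gene called lower, with 1423 and 2854 on female olfactory arrays against 2856 to 5384 on female respiratory arrays, a difference of -1.06 (SE 0.35, limma adjusted p 0.0359). These counts rest on single arrays: without female olfactory 6 limma called no gene, with 6 at an unadjusted p under 0.05, beside 6.37% of all probe sets called and 20.2% at that unadjusted p. Without female respiratory 8 there were 24 higher and 3 lower, beside 9.17% and 14.5% of all probe sets. With the array's 95th percentile as a covariate there were 3 higher and 17 lower, beside 10.2% and 9.99% of all probe sets, and the median was -0.21. The RNA integrity number was 8.3 on both female olfactory arrays and 8.7 to 9.3 on female respiratory arrays. Tissue and this number therefore cannot be told apart in females either. With it as a covariate limma called no member, and the share of all probe sets is given with the alternatives below. Without overlap between the tissues, 16 of 90 genes were higher and 3 lower in female olfactory arrays, beside 18.8% and 18.0% of all genes.

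No member was called between the sexes in either tissue, or for a difference of the tissue effect between the sexes, by limma with adjusted p under 0.05 or under any alternative tried. Of all probe sets 0.0258% were called between the sexes in respiratory and 0.0419% in olfactory epithelium, and 0% for the difference of the tissue effects. At an unadjusted p under 0.05 there were 1 member in respiratory epithelium, none in olfactory epithelium and 1 for the difference of the tissue effects, Sdhd both times, which is 1.11%, 0% and 1.11% of the set beside 3.74%, 5.1% and 4.88% of all probe sets. The second probe set of Sdhd did not share this, with unadjusted limma p 0.64 in respiratory epithelium and 0.22 for the difference of the tissue effects. The 2 female olfactory arrays leave small differences undetectable. The set's median difference, female minus male, was -0.04 in respiratory and 0.25 in olfactory epithelium, where both female arrays were among the 6 brightest of the 20.

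The promoters of members that moved and of their common forms are shown for what they hold of motifs known from nuclear-encoded mitochondrial genes. RefSeq sequences of the GRCr8 assembly, 250 bases before to 50 after the annotated start, were matched for 82 of the 90 genes. Searched on both strands were GCGCATGC (NRF1), AAGGTCA (estrogen-related receptors), CCGGAAG (Ets factors) and AAGATGGC (YY1). NRF1's letters were in 11.0% of members' promoters, beside 2.66% of all 27457 promoters. The shares were 13.4% beside 4.37% for estrogen-related receptors, 30.5% beside 9.22% for Ets and 20.7% beside 3.44% for YY1. Median GC content was 56.0% in members' promoters and 52.3% in all. The 4 promoters below, each on the minus strand of its chromosome and printed 5' to 3' on the strand of its gene, are at chr1:205408224-205408523 (Cox8b), chr1:213833574-213833873 (Cox8a), chr1:253362887-253363186 (Ndufb8) and chr3:79220615-79220914 (Atp5mc3), with motif matches in capitals.
Cox8b: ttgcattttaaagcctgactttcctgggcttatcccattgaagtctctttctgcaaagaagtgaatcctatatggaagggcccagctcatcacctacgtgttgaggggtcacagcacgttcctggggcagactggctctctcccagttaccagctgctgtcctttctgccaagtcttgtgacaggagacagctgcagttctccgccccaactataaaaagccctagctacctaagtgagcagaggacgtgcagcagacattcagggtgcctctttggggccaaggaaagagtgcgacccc
Cox8a: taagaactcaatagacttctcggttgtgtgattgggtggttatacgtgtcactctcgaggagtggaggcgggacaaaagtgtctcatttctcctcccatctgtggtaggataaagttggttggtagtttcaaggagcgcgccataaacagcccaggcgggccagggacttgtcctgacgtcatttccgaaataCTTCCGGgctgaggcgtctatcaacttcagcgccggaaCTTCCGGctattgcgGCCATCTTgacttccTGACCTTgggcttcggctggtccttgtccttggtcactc
Ndufb8: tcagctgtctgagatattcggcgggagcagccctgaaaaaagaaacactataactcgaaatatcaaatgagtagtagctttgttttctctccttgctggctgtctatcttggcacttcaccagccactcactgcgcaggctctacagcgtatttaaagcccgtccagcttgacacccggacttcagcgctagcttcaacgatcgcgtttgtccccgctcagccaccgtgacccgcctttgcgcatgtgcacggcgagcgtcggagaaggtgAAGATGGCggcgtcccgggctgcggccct
Atp5mc3: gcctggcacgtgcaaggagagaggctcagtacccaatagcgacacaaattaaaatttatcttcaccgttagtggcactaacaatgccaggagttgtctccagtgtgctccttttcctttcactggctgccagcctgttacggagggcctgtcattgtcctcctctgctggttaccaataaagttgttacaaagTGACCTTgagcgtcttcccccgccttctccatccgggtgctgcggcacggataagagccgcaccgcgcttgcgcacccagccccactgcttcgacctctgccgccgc
In these windows Cox8a held Ets matches, a YY1 match and an estrogen-related receptor match, Ndufb8 a YY1 match and Atp5mc3 an estrogen-related receptor match. Cox8b held none of the 4 motifs. No match was found in the windows of Ndufv3 and Cox6b2 either. A match or its lack describes only these letters.

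Other gene lists of mitochondria and energy metabolism were counted beside the chain in males. Of 34 assembly factors outside the name rule 2 were higher and 2 lower, with Cox20, a chaperone of complex IV, at 1.06 (SE 0.20, limma adjusted p 0.0004) and the complex I factor Foxred1 at -1.42 (limma adjusted p 0.0128). Of 18 genes of the citric acid cycle and pyruvate entry 1 was higher and 4 lower, with a median of -0.16. The lowest were Idh2 at -1.10 (SE 0.16, limma adjusted p 1.3e-05) and Idh3a at -0.99, both isocitrate dehydrogenases, and Suclg2, a succinyl-CoA ligase, at -0.82. Of 17 carriers and uncoupling proteins 1 was higher and 4 lower, with Slc25a13, the aspartate-glutamate carrier, at -1.62 (SE 0.22, limma adjusted p 6.0e-06). Of 14 genes of fatty acid oxidation 1 was higher (Acads, 1.32) and 3 lower, among them Acadl at -1.02 and Cpt1b at -1.27. A mixed list of 19 genes held electron donors to the chain, ubiquinone synthesis genes and others such as Cyc1, a subunit of complex III. None of them was higher and 2 were lower, Gpd2 at -0.76 and Etfa at -0.61.

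Of 21 genes of protein import 3 were higher and none lower: Timm17a at 0.68, Phb2 at 0.57 and Tomm70 at 0.49. Of 73 mitochondrial ribosomal proteins 4 were higher and 1 lower, with a median of 0.19, as in the chain. Of 25 regulators of mitochondrial biogenesis 1 was higher, Ppargc1b at 1.18 (limma adjusted p 0.0412), and 2 lower, Esrrg at -1.09 and Yy1 at -0.45. Of 19 glycolysis genes 4 were higher and 3 lower. The higher ones included forms typical of neurons and brain: the glucose transporter Slc2a3 at 2.62 (SE 0.27, limma adjusted p 1.3e-07), the enolase Eno2 at 2.00 and the aldolase Aldoc at 1.93. All these counts are to be read against the 14.0% of all genes higher and 17.8% lower. The lists were chosen with earlier results of these data known.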

How the data were processed

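Total RNA of each sample was labelled and put on 1 Affymetrix rat array (Rat230_2), per the labels. The deposited values are 1 linear intensity per probe set and array, already scaled by the authors; the submitters' processing notes name GCOS 1.0, with its algorithm and scaling target not given in the sources used here. Probe sets were named by the platform annotation: of 31042 tested, 20826 had 1 symbol, 436 several and 9780 none, and 57 controls were left out.

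Values were taken as log2(signal + 16). One linear model with 4 group means was fitted to all 20 arrays with limma 3.58.1 (R 4.3.3) and an intensity trend. The Benjamini-Hochberg adjustment ran over the 31042 probe sets, and genes under 0.05 count as called. Differences are log2 and SE is the fit's. The procedure was tested on simulated data. Their noise was drawn independently for each probe set and array, so the test does not cover array brightness shared by many genes. Background was the 95th percentile of 27 control probe sets without target. The labels name the rat, so arrays of 1 rat are paired; the consensus correlation within rats was 0.0386, and the model without a rat term is reported. Replicates are separate rats, and their number limits the precision.

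Members named in the text are the genes called in males, the brightest probe set of each complex and all tissue forms and paralogs; of each other list the 3 largest called changes. Genes called in females, Ndufs1, Sdhaf2, Ndufb7 and further examples were named after their values were seen. The members, lists and tests were chosen with earlier results of these data known. The alternatives were other pseudocounts, quantile normalization, a filter on dim probe sets, means over probe sets, no intensity trend, blocks for rat and age, RNA integrity, single ages and arrays left out. The array's 95th percentile as a covariate and leaving out the 4 brightest arrays of their groups were added after seeing the data.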

Additional observations from a re-analysis of the deposited data

Results flagged for a closer look

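Of 99 sets of 6 arrays tested, 26 had 1 array farther from the nearest other than Dixon's 95% limit allows. Chance would give about 1 in 20 if the sets were independent. They are not, since the same arrays are read for different genes and array brightness is shared by many genes. Ndufs1 was also named after its values were seen. The count therefore cannot be read as an excess over chance. The 26 flagged sets fall on only 2 arrays, 13 on female respiratory 8 and 13 on male respiratory 7. Values are log2(signal + 16).

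On female respiratory 8 the set's median level was 13.23, against 11.99 to 12.21 on the other female respiratory arrays. Single genes above the rest of their group there were Atp5if1 13.85, Cox6a1 14.05, Cox6b1 14.79, Cox6c 15.27, Cox7b 15.35, Cox8a 14.33, Ndufa4 14.98, Ndufb4 14.72, Ndufv3 12.27, Sdhaf1 11.82, Sdhb 13.88, Uqcrh 15.09.

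On male respiratory 7 the genes above the rest of their group were Atp5if1 12.95, Cox4i1 14.50, Cox6a1 14.02, Cox6b1 13.62, Cox6c 14.59, Cox7b 14.66, Cox8a 14.16, Ndufa4 14.20, Ndufaf3 10.85, Ndufb8 10.15, Sdhaf1 12.11, Uqcrh 14.37. One gene lay below it: Ndufs1 had 9.68, against 11.53 to 11.91 on the other male respiratory arrays. What sets these arrays apart was not tested, and the counts without them are given with the male and female comparisons.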

How the results depend on the processing

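With the rat as a random replicate block, 6 members were higher and 1 lower in males and 7 and 1 in females, and no call of a member changed. Within the 5 paired males, with the rat as a fixed replicate block, 5 were higher and none lower, and Ndufb2 and Atp5mc3 lost their calls, as stated beside them. The pairing changed no other call of a member. In parentheses is the percentage of all probe sets called either way in the same model. Of the male counts, 6 higher and 1 lower (25.2), these moved by over 1.5 times: quantile normalization gave 9 higher and 0 lower (26.4), the RNA integrity number as a covariate 0 and 0 (7.56), the arrays with that number but no covariate 6 and 0 (23.2), males aged 11 weeks alone 4 and 3 (25.1), leaving out male respiratory 7 and female respiratory 8 19 and 3 (31.9), the 95th percentile as a covariate 7 and 8 (31.6), and leaving out the 4 brightest arrays 14 and 3 (32.2). Of the female counts, 7 higher and 1 lower (17.9), these did: quantile normalization 11 and 1 (18.4), pseudocount 64 8 and 2 (18), dim probe sets left out 10 and 3 (30.2), the mean of a gene's probe sets 8 and 2 (23.4, of genes), no intensity trend 5 and 0 (17), the RNA integrity number as a covariate 0 and 0 (3.65), the arrays with that number alone 10 and 2 (20.1), age as a block 6 and 2 (19), leaving out male respiratory 7 and female respiratory 8 39 and 3 (27.3), and the 95th percentile as a covariate 3 and 17 (20.2). Leaving out 1 array at a time gave 5 to 9 higher and 1 to 3 lower in males, the most without male respiratory 7, and 0 to 24 higher and 0 to 3 lower in females, where limma called 6.37 to 23.7% of all probe sets. The median member difference moved to -0.32 in males and -0.26 in females with the RNA integrity number, and to -0.21 in females with the 95th percentile. Quantile normalization moved the median over all probe sets from -0.11 to 0.02 in females, and the members' median there was 0.42. The cause of these shifts was not tested. Dim members such as Cox6a2 and Cox7b2 lie too near background to show a difference.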
